A study of Homo sapiens with 9 samples.

Results

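The IL6 family and its STAT3 pathway were followed here through 10 genes, chosen by symbol: the cytokines IL6, CSF3, CSF2, LIF and IL11, the receptor chains IL6ST, OSMR and LIFR, the transcription factor STAT3 and its feedback inhibitor SOCS3. Every probe set that the array annotation assigns to one of these genes alone was taken. This gave 28 probe sets of 9 genes, out of 54675 probe sets on the array and 19775 genes with a probe set of their own. CSF2 had no probe set assigned to it alone in the annotation used and was not analysed here.

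The 9 arrays measure 3 human breast epithelial lines of the MCF-10A series, 3 arrays per line. MII (MCF-10AT1Kcl2) stands for carcinoma in situ, MIII (MCF-10A1h) for carcinoma and MIV (MCF-10A1a) for metastatic carcinoma, according to the labels. The MCF-10A parent is a non-tumorigenic breast epithelial line, and these derivatives carry activated HRAS. All lines grew in the same medium with horse serum, insulin, cholera toxin, epidermal growth factor and a glucocorticoid. Each stage is represented by 1 line, so a difference between lines cannot be told apart from a difference between stages. Arrays of 1 line are labelled as biological replicates, but no label names separate cultures. The p-values therefore refer to the spread among these 9 arrays, part of which may be technical.

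IL6-type cytokines bind receptors that share the chain IL6ST, also called gp130. LIF signals through LIFR with IL6ST, oncostatin M through OSMR with IL6ST, and IL6 and IL11 through an alpha chain of their own with IL6ST. The receptors activate JAK kinases, which phosphorylate STAT3, and SOCS3 is a STAT3 target whose protein blocks the receptor complex. CSF3 (G-CSF) has its own receptor that also signals to STAT3, whereas CSF2 (GM-CSF) signals mainly to STAT5. STAT3 activity rests on phosphorylation, which RNA levels do not measure.

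Values are MAS5 signals, a linear measure of probe set brightness given once for each array. Median signals per array ran between 69.0 and 71.7 for MII, between 72.1 and 74.9 for MIII and between 64.7 and 65.2 for MIV. Precision is limited by having 3 arrays per line. MIV replicate 3 stood apart in the bioB hybridisation control, with a mean of 2619.8 against 823 to 1283 on the other 8 arrays. Of 5 basal epithelial markers with a probe set, all 5 lay above the pooled median signal of 69.3 on every array of each line. The level of KRT14 among them differed between lines, at means of 2155 for MII, 957 for MIII and 137 for MIV. The luminal list summed to 85807 to 89477 in MII, 40442 to 41653 in MIII and 86586 to 95284 in MIV. The fibroblast list summed to 1136.5 to 1175 in MII, 4899 to 5220.0 in MIII and 789 to 867 in MIV, and 3, 6 and 2 of its 9 genes lay above the pooled median on all arrays of MII, MIII and MIV. Within the fibroblast list DCN had means of 75.03 for MII, 2511 for MIII and 52.6 for MIV, THY1 60.8, 995 and 48.0, COL3A1 4.8, 653 and 11.3, and LUM 4.7, 197 and 12 in the same order. FAP and COL1A1 of that list were instead highest in MII. FAP averaged 678 for MII, 405 for MIII and 390 for MIV, and COL1A1 243, 213 and 222.5. The leukocyte list summed to 1889 to 2039 for MII, 939 to 1232.5 for MIII and 905 to 1167 for MIV, and the endothelial list to 157 to 307 for MII, 317.5 to 357 for MIII and 266 to 377 for MIV. CD14, CD79A and LCP1 of the leukocyte list and PECAM1 of the endothelial list were above the pooled median on all 9 arrays. The luminal marker KRT19, the fibroblast markers COL1A2, PDGFRA and PDGFRB, the leukocyte markers PTPRC and CD163 and the endothelial markers CDH5, VWF, KDR and TEK were at or below the pooled median on all 9 arrays.

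MIII stood apart from both other lines in this pathway, and also over the whole array. Its highest correlation with an array of another line was 0.9497 to 0.951, against 0.9600 to 0.961 for MII arrays and 0.9597 to 0.961 for MIV arrays. The GAPDH 3′ to 5′ signal ratio, a measure of RNA integrity, was 1.06 to 1.16 in MII, 0.974 to 0.988 in MIII and 1.04 to 1.09 in MIV, and its part in the results was not tested. IL6, CSF3, the receptor chains IL6ST and LIFR and the inhibitor SOCS3 were higher in MIII than in MII and lower in MIV than in MIII. LIF was higher in MIV than in either other line, STAT3 was not called in any comparison, and IL11 was dim throughout. A gene was called at a limma adjusted p under 0.05, adjusted by Benjamini-Hochberg over 12594 genes, and a change of at least 2-fold in log2(signal + 18.3), a scale that understates the change of dim genes. Genes entered the test if at least 3 arrays exceeded the pooled median, and 8 of the 10 genes did.

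Between MIV and MIII 1 of the 8 tested genes was called up and 5 down (4.95% of all genes up and 7.79% down). Between MIV and MII 1 was called up and 1 down (2.96% and 5.18% of all genes). Between MIII and MII 5 were called up and 0 down (6.17% and 5.55% of all genes). IL6 and CSF3 exceeded the pooled median on MIII arrays alone and so entered the test through the line in which they were high. Their inclusion does not add to the count as support. In a fit over all 54613 non-control probe sets without a filter, 10 of the 28 probe sets were called up in MIII against MII (3.56% of all) and 0 down (2.68%). In MIV against MIII 10 were called down (4.37% of all) and 2 up (2.46%), and in MIV against MII 2 were called up (1.48%) and 1 down (2.58%). MIII arrays enter both of the comparisons that show this pattern, so these changes share arrays. Of all tested genes 512 (4.07%) were called both up in MIII against MII and down in MIV against MIII, and 5 of the 8 tested members were.

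**Figure D1:**
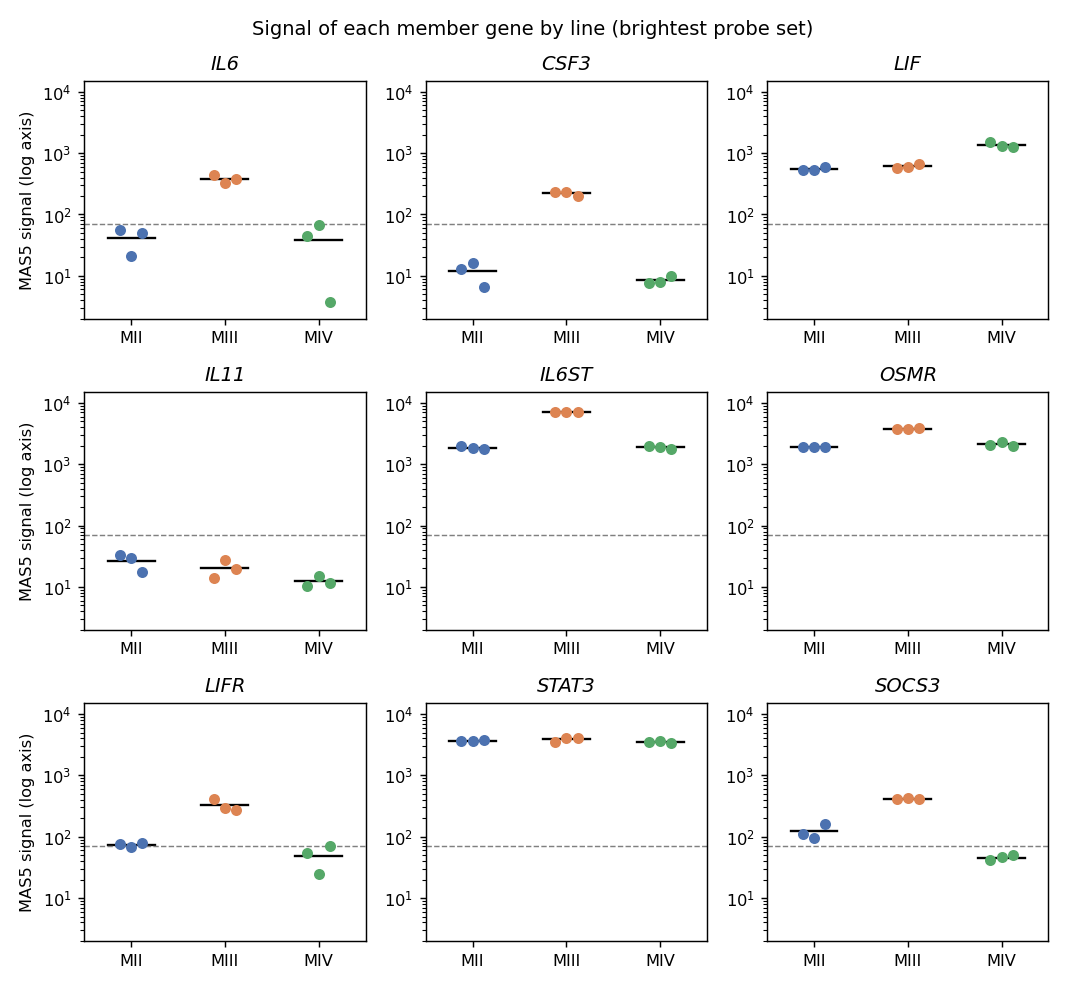
MAS5 signal (log axis) of the brightest probe set of each of the 9 measured genes, with 1 point per array, a black bar for the mean of 3 arrays and a dashed line at the pooled median of 69.3. IL6, CSF3, IL6ST, OSMR, LIFR and SOCS3 were higher on all MIII arrays than on any MII or MIV array, LIF was highest in MIV, and IL11 stayed under the dashed line.

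IL6, the cytokine that names the family, was measured by 1 probe set. Its signals were 55.8, 21.1 and 49.4 in MII, 442, 324 and 378 in MIII, and 44.5, 67.9 and 3.8 in MIV. All 3 MIII arrays lay far above the others, and the 6 arrays of MII and MIV lay under the pooled median and overlapped each other. The log2 change was -3.01 ± 0.43 (SE) in MIV against MIII (limma adjusted p = 4.13e-05) and 2.77 ± 0.43 in MIII against MII (adjusted p = 0.000102), a 6.81-fold difference on the offset scale. The size depends on the offset, with -3.94 in MIV against MIII at an offset of 1 and -2.10 at the pooled median. Between MIV and MII it was -0.24, with a 95% interval of -1.16 to 0.68 that leaves room for a 2-fold difference in the lower direction. The lowest value, 3.8, came from the MIV array with the high bioB signal, and without it the change against MII was 0.34 and that against MIII -2.43.

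CSF3, the growth factor of neutrophils, followed the same order on its single probe set. Signals were 12.8, 16.2 and 6.6 in MII, 235, 233 and 202.5 in MIII, and 7.6, 8.0 and 10.1 in MIV. MIII was again the only line above the pooled median. CSF3 fell by 3.17 ± 0.33 in log2 in MIV against MIII (limma adjusted p = 2.16e-06) and rose by 3.01 ± 0.33 in MIII against MII (adjusted p = 4.00e-06). The change in MIV against MIII was -4.56 at an offset of 1 and -1.91 at the pooled median. Because MII and MIV lie near the floor, these values do not rank CSF3 against IL6.

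LIF, which signals through LIFR and IL6ST, had the opposite relation to MIV. Its signals were 528, 524 and 589.6 in MII, 579, 601 and 672 in MIII, and 1506, 1307 and 1276 in MIV. The lowest MIV array lay well above the highest array of either other line, while MII and MIII overlapped. LIF rose by 1.12 ± 0.09 in MIV against MIII (limma adjusted p = 2.61e-07) and by 1.29 ± 0.09 in MIV against MII (adjusted p = 1.07e-07). In MIII against MII the change was 0.17, with a 95% interval of -0.03 to 0.37. LIF was thus the 1 member among 125 genes (0.993% of those tested) called higher in MIV than in MIII and also than in MII. Both of its calls in MIV were made with each array left out in turn and under each offset and scaling tried.

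IL11, a cytokine that shares IL6ST, was not above the pooled median on any array by either of its 2 probe sets. On the brighter one the signals were 33.0, 30 and 17.4 in MII, 14.0, 27.4 and 19.7 in MIII, and 10.4, 14.8 and 11.7 in MIV. The other probe set gave values between 4.3 and 36.5 with no shared order of the lines. At this level no difference could be detected, and the unfiltered limma fit called neither probe set in any comparison, the lowest unadjusted p being 0.0621.

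IL6ST, the signal-transducing chain common to the family, was bright in all lines and brightest in MIII. On its brightest probe set the signals were 1966, 1814 and 1743 in MII, 7016, 7146 and 7202 in MIII, and 2001, 1922 and 1781 in MIV. The MIII arrays lay close together and far above every array of the other lines, which overlapped each other. IL6ST fell by 1.90 ± 0.06 in MIV against MIII (limma adjusted p = 1.45e-11) and rose by 1.94 ± 0.06 in MIII against MII (adjusted p = 1.11e-11). MIV and MII differed by 0.05, with a 95% interval of -0.09 to 0.18, which does not reach 2-fold in either direction. Of its 7 probe sets, 4 were called down in MIV against MIII and 4 up in MIII against MII, and 0 of the 7 were called in MIV against MII. The 5 probe sets that passed the filter ranged from -1.91 to -0.56 in MIV against MIII and from 0.56 to 1.94 in MIII against MII, so they shared a direction and differed in size. With all probe sets averaged the changes were -1.12 and 1.05. The other 2 were under the pooled median on all arrays.

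OSMR, the oncostatin M chain, was measured by 3 probe sets that did not move alike. On the brightest the signals were 1903, 1944 and 1927 in MII, 3789.7, 3793 and 3877 in MIII, and 2063, 2269.9 and 2001 in MIV. Its 3 lines did not overlap, with MIII highest. The log2 change was -0.85 ± 0.06 in MIV against MIII (limma adjusted p = 3.07e-08) and 0.98 ± 0.06 in MIII against MII (adjusted p = 7.48e-09), or 1.98-fold, just short of the 2-fold minimum. The second probe set gave -0.82 and 0.85 for the same comparisons. With all 3 averaged the change in MIV against MIII was -0.08 (limma adjusted p = 0.358).

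The third OSMR probe set had the order of LIF rather than that of the other OSMR probe sets. Its signals were 289, 295 and 245 in MII, 259, 245 and 296 in MIII, and 749, 693 and 814 in MIV. MII and MIII overlapped and MIV stood clear of both. In the unfiltered fit this probe set rose by 1.44 ± 0.12 in MIV against MIII (limma adjusted p = 9.94e-07) and by 1.39 ± 0.12 in MIV against MII (adjusted p = 2.48e-06). The log2 ratio of the third over the brightest probe set averaged -2.72 ± 0.14 for MII arrays, -3.76 ± 0.11 for MIII arrays and -1.47 ± 0.20 for MIV arrays (SDs of 3 arrays). The ratio was higher by 2.29 in MIV than in MIII, higher by 1.26 in MIV than in MII and had a difference of -1.03 in MIII against MII. This ratio was formed after the values were seen and is given as a description. The files do not say which OSMR transcripts each probe set reads.

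LIFR, the chain that binds LIF, was dim outside MIII. On its brightest probe set the signals were 76.0, 67.0 and 78.8 in MII, 419.8, 295 and 274 in MIII, and 53.4, 24.7 and 69.8 in MIV. The MIII arrays lay above all others, and MII and MIV overlapped around the pooled median. LIFR fell by 2.40 ± 0.27 in MIV against MIII (limma adjusted p = 5.47e-06) and rose by 1.89 ± 0.27 in MIII against MII (adjusted p = 5.87e-05). In MIV against MII it had -0.51, with a 95% interval of -1.10 to 0.08. Of 5 probe sets 2 were called in each of the comparisons with MIII, and another 2 were under the pooled median on all arrays. The dimmer of the called probe sets exceeded the pooled median on MIII arrays alone, at 105.5, 91.7 and 123.3 there. Its calls do not add support. The size of the change depended on the probe sets: those that passed the filter ranged from -2.40 to -0.83 in MIV against MIII, and with all probe sets averaged it was -1.02 there and 0.96, short of a call, in MIII against MII. With the offset at the pooled median it was -1.75 in MIV against MIII. LIF and its receptor chain were highest in different lines, LIF in MIV and LIFR in MIII.

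**Figure D2:**
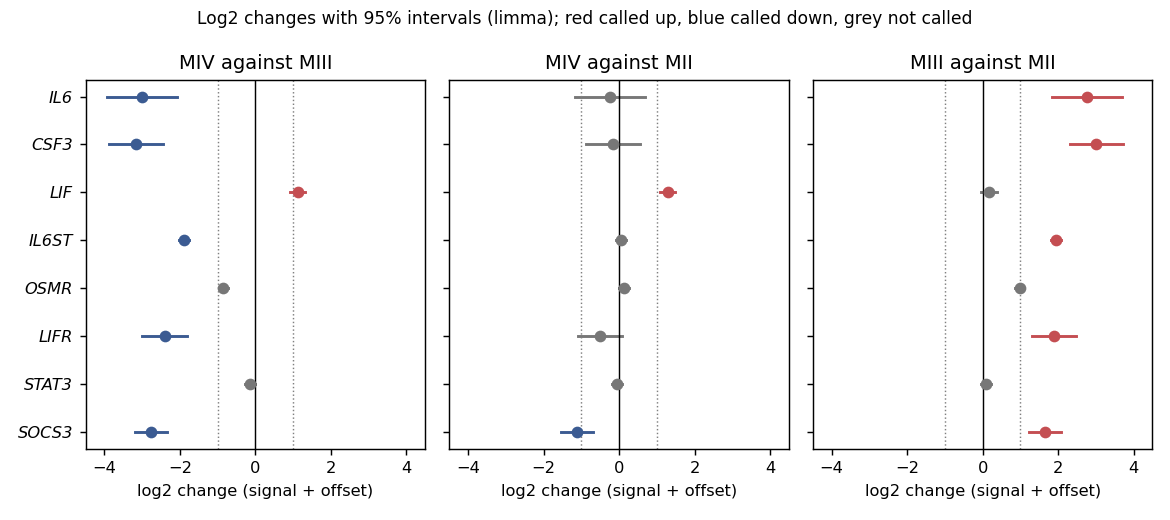
Log2 changes of the 8 tested genes on the log2(signal + offset) scale with their limma 95% intervals, for MIV against MIII, MIV against MII and MIII against MII; dotted lines mark 2-fold, and red, blue and grey mark genes called up, called down and not called. In MIV against MIII 5 genes were called down and LIF up, in MIII against MII 5 were called up, and in MIV against MII LIF was up and SOCS3 down.

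STAT3 itself was bright and nearly level. On its brightest probe set the signals were 3615, 3584 and 3716 in MII, 3507, 4120.1 and 4046 in MIII, and 3569, 3579.5 and 3357.5 in MIV. The lowest MIII array lay below all MII arrays, while the other 2 lay above them. The log2 change was -0.15 in MIV against MIII, with a 95% interval of -0.28 to -0.01 (limma adjusted p = 0.0661), and 0.09 in MIII against MII, with an interval of -0.04 to 0.23. In MIV against MII it was -0.06, with an interval of -0.19 to 0.08. None of these intervals reaches a 2-fold difference. The 4 probe sets ranged from -0.36 to 0.14 in MIV against MIII, and none of the 4 was called in the unfiltered limma fit, where the lowest adjusted p was 0.0555.

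SOCS3, the feedback inhibitor that STAT3 induces, was highest in MIII. On its brightest probe set the signals were 112.5, 96.8 and 159 in MII, 411, 434.5 and 406 in MIII, and 41.6, 46.0 and 49.9 in MIV. On this probe set the lines did not overlap, and all MIV arrays were under the pooled median. SOCS3 fell by 2.77 ± 0.20 in MIV against MIII (limma adjusted p = 5.00e-08), by 1.12 ± 0.20 in MIV against MII (adjusted p = 0.000449) and rose by 1.65 ± 0.20 in MIII against MII (adjusted p = 9.63e-06). The size depends on the offset, with -3.16 in MIV against MIII at an offset of 1 and -2.08 at the pooled median. The fall against MII rested on this probe set and on MII replicate 3. Without that array the change was -0.94, with all probe sets averaged it was -0.40, and with the offset at the pooled median it was -0.73, all short of a call. A second probe set was called in both comparisons with MIII, at -2.55 in MIV against MIII and 1.97 in MIII against MII, and gave -0.58 in MIV against MII without a call. Its signals were 5.4, 5.8 and 46.5 in MII, 93.2, 162.3 and 91.3 in MIII, and 5.4, 2.6 and 3.9 in MIV. It exceeded the pooled median on MIII arrays alone and so passed the filter through the line in which it was high. Its calls do not add support. The remaining probe set that passed the filter was not called in any comparison, at -0.93 for MIV over MIII, 0.05 for MIV over MII and 0.99 for MIII over MII. Its MIV signals of 95.7, 26.2 and 141 overlapped both other lines. With all probe sets averaged, SOCS3 had -1.43 in MIV against MIII and 1.03 in MIII against MII.

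**Figure D3:**
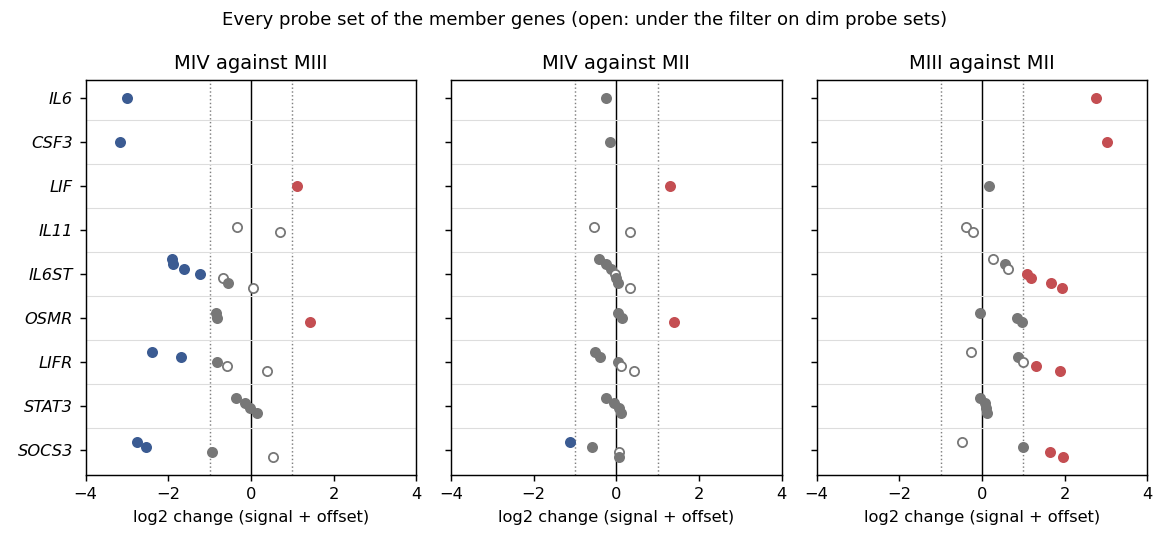
Log2 change of each of the 28 probe sets of the 9 measured genes in the unfiltered limma fit, for each comparison; filled points passed the filter on dim probe sets, open points did not, and red, blue and grey mark called up, called down and not called. The OSMR probe set at 1.44 in MIV against MIII lies opposite to the other 2, and STAT3 stays near 0.

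By array order alone, 6 of the 9 genes had every MIII array above every MII array on their brightest probe set (26.7% of all genes tested), and 0 had the opposite order (28.6%). In MIV against MIII 6 had every MIV array below every MIII array (30.4%) and 1 above (28.4%). In MIV against MII 2 genes had all MIV arrays above and 3 all below (23.7% and 27.1%). The shares are of the 12594 genes tested, whereas the 9 genes include IL11, which was under the filter. IL6 and CSF3 exceeded the pooled median on MIII arrays alone, so they do not add to the counts for MIII as support. Since arrays are bulk RNA, fewer cells with a transcript and less of it per cell cannot be told apart. The summed fibroblast list given above was also highest in MIII, though FAP and COL1A1 of it were not. The part of these markers in the results was not tested.

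Promoter sequences are shown for the members that were highest in MIII and for which the RefSeq table (GRCh38.p14) holds a window outside the gene itself, so that their sequences can be set side by side. OSMR is among them by its brightest probe set, which was short of a call. Each line gives the 250 bases before the gene start, 5′ to 3′ on the gene's strand, in lower case. Capitals mark exact matches, on either strand, to 1 of 5 motifs: the STAT palindrome (TTC, 3 free bases, GAA), AP-1 (TGA, 1 free base, TCA), kappaB (GGGA, 4 free bases, CC), C/EBP (TTGC, 2 free bases, AA) or the TATA box (TATAAA).
IL6 (chr7:22726950-22727199, plus strand): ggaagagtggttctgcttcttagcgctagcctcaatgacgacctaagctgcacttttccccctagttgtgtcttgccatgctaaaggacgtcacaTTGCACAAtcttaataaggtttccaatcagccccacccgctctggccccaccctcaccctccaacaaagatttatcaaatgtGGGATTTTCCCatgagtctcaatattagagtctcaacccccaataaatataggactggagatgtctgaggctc
IL6ST (chr5:55994964-55995213, minus strand): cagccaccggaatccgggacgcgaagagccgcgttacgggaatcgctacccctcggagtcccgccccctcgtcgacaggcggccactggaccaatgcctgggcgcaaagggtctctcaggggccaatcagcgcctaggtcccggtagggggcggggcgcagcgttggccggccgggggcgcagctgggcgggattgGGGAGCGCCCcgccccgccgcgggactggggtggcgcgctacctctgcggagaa
OSMR (chr5:38845762-38846011, plus strand): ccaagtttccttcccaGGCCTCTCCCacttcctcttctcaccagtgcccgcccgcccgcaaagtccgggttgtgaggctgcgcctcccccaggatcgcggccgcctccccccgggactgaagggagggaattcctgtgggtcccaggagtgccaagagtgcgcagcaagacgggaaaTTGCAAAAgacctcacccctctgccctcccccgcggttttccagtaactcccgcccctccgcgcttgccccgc
SOCS3 (chr17:78360926-78361175, minus strand): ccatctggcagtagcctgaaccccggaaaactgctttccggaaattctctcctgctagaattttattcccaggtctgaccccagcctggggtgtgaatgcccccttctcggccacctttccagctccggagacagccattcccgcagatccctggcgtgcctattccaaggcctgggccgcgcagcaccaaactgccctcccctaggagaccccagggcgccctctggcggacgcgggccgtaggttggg
The IL6 window held 2 overlapping kappaB matches on opposite strands, the first at -73 to -64 from the start and the other at -72 to -63, and a C/EBP match at -155 to -148. The IL6ST window held 1 kappaB match at -54 to -45. The OSMR window held a kappaB match at -234 to -225 and a C/EBP match at -73 to -66, and the SOCS3 window held none of these letter strings. Over 34788 distinct promoter windows of the same length, 22.6% held the kappaB letters, 9.05% the C/EBP letters, 6.57% the STAT letters, 6.59% the AP-1 letters and 10.8% the TATA box. The matches are descriptions of letters in these windows. RefSeq windows were found for 8 of the 10 genes, LIF and CSF3 being the others. LIFR was also highest in MIII, but each of its windows overlaps the gene itself and is not shown. The STAT letters occurred in one LIFR window at -165 to -157 and in another at -182 to -174. The latter also held the C/EBP letters at -31 to -24 and TATA box letters, and a further window held none of these letter strings.

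Calls among other chains of the family are read against 4.95% of all genes up and 7.79% down for MIV over MIII, 2.96% and 5.18% for MIV over MII, and 6.17% and 5.55% for MIII over MII. Of 13 further IL6-family ligands and receptor chains, 10 had a probe set and 6 were tested, with 1 called down in MIV against MIII, 1 called up in MIII against MII and 0 in the remaining comparison by limma, where 1 had an unadjusted p under 0.05. IL6R, the alpha chain that binds IL6, had 159 ± 21.6 in MII, 183 ± 54.3 in MIII and 73.4 ± 19.2 in MIV (SDs of 3 arrays). It fell by 1.12 ± 0.24 in MIV against MIII (limma adjusted p = 0.00135) and had -0.97 in MIV against MII (adjusted p = 0.00522), short of 2-fold. IL31RA, which pairs with OSMR to bind IL31, had 146 ± 22.6 in MII, 316 ± 55.03 in MIII and 169 ± 7.6 in MIV. It rose by 1.02 ± 0.17 in MIII against MII (adjusted p = 0.000227) and had -0.82 in MIV against MIII. The list median was -0.53 for MIV over MIII, -0.08 for MIV over MII and 0.17 for MIII over MII, beside -0.012, -0.027 and -0.016 over all genes. The oncostatin M gene OSM, named after its values were seen, was under the filter, at a mean signal of 16.8 for MII, 25.1 for MIII and 5.9 for MIV. Of 3 receptor chains of CSF2 and CSF3, only CSF3R was tested. It had 84.4 in MII, 71.1 in MIII and 56.4 in MIV and no call, with a 95% interval of -1.24 to 1.10 in MIII against MII.

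Kinases, other STATs and inhibitors of the pathway were counted in the same way. Of 10 JAK kinases and other STATs 8 were tested, and 1 was called down in MIV against MIII (7.79% of all genes) and 1 down in MIII against MII (5.55%). STAT5A, a transducer of CSF2 and prolactin signals, had 159 ± 45.4 in MII, 178 ± 14.4 in MIII and 77.2 ± 15.4 in MIV and fell by 1.05 ± 0.23 in MIV against MIII (limma adjusted p = 0.00136). STAT4, known as a transducer of IL12, had 342 ± 14.2 in MII, 146 ± 15.0 in MIII and 205 ± 11.99 in MIV and fell by 1.14 ± 0.14 in MIII against MII. The list medians were -0.07 for MIV over MIII, -0.12 for MIV over MII and 0.16 for MIII over MII. None of 16 tested negative regulators, which include the other SOCS genes, CISH, the PIAS genes and tyrosine phosphatases, was called by limma in any comparison. Of all genes 4.95% were called up and 7.79% down for MIV over MIII, 2.96% and 5.18% for MIV over MII, and 6.17% and 5.55% for MIII over MII. At shares of this size, the absence of calls among 16 genes does not set the list apart from all genes. Their changes lay between -0.66 and 0.62 for MIV over MIII, between -0.44 and 0.62 for MIV over MII and between -0.39 and 0.75 for MIII over MII. An adjusted p under 0.05 without the fold minimum was reached by 9, 9 and 5 of the 16 in that order of comparisons. Of all 12594 genes tested, 6530, 5310 and 5946 reached the same adjusted p. An unadjusted p under 0.05 was reached by 9, 13 and 7 of the 16, for which no count over all genes was made.

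Reported STAT3 targets outside the members had calls in both directions. Of 25 genes 18 were tested, with 1 up and 5 down for MIV over MIII, 4 up and 1 down for MIV over MII, and 4 up and 1 down for MIII over MII. Of all genes, 4.95% were up and 7.79% down, 2.96% up and 5.18% down, and 6.17% up and 5.55% down in these comparisons. The medians were -0.39, 0.05 and 0.43 in the same order of comparisons. TIMP1, an inhibitor of matrix metalloproteinases, was also highest in MIII, with 12444 ± 635 in MII, 41473 ± 751 in MIII and 11518 ± 938 in MIV. It fell by 1.85 ± 0.06 in MIV against MIII and rose by 1.74 ± 0.06 in MIII against MII. ICAM1, an adhesion molecule, had 68.4 ± 10.4 in MII, 448 ± 14.6 in MIII and 196 ± 40.5 in MIV, with log2 changes of -1.14 ± 0.18 for MIV over MIII, 1.29 ± 0.18 for MIV over MII and 2.43 ± 0.18 for MIII over MII. SERPINA3, an acute-phase protease inhibitor, was instead highest in MIV, with 7441 ± 372 in MII, 23388 ± 1053 in MIII and 37335 ± 2661 in MIV. MUC1, a surface mucin, had 6277 ± 168 in MII, 336 ± 17.6 in MIII and 117 ± 18.8 in MIV. It fell by 5.55 ± 0.11 in MIV against MII and by 4.15 ± 0.11 in MIII against MII.

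The list of reported inducers of IL6 and colony-stimulating factors had calls in both directions for MIV over MIII and mostly upward calls in the other comparisons. It also holds inhibitors, among them the antagonist IL1RN. IL1RN is counted as up for MIV over MIII and as down for MIII over MII. The counts and medians therefore do not describe inducers alone. Of 19 genes 17 were tested, with 4 up and 3 down for MIV over MIII, 4 up and 0 down for MIV over MII, and 5 up and 1 down for MIII over MII, where the shares of all genes are those just given. The medians were 0.0071, 0.39 and 0.31 in that order. The cytokines IL1A and IL1B were lowest in MII and highest in MIV, at mean signals of 77.5 for MII, 316 for MIII and 1132 for MIV in the case of IL1A and of 181, 582 and 984 for IL1B. IL1RN, the antagonist of both at their receptor, was lowest in MIII, with 1869.5 ± 179 in MII, 112 ± 21.3 in MIII and 942.5 ± 35.9 in MIV. It rose by 2.89 ± 0.12 in MIV against MIII and fell by 3.86 ± 0.12 in MIII against MII. TNFRSF1A, a receptor of tumour necrosis factor, had 1255 ± 227 in MII, 7007 ± 1708.5 in MIII and 1717 ± 143 in MIV. Its change was -1.99 ± 0.15 in MIV against MIII and 2.45 ± 0.15 in MIII against MII. IL1R1, the receptor of IL1A and IL1B, and IL1RAP, its accessory chain, are named here after their values were seen. IL1R1 had 174 ± 4.1 in MII, 484 ± 44.6 in MIII and 82.3 ± 7.97 in MIV, fell by 2.32 ± 0.15 in MIV against MIII and rose by 1.38 ± 0.15 in MIII against MII. IL1RAP had 645 ± 97.2 in MII, 2059 ± 125 in MIII and 1504 ± 93.6 in MIV and rose in MIII and in MIV against MII, by 1.66 ± 0.10 and 1.21 ± 0.10. IL1R1, IL1RAP and TNFRSF1A were highest in MIII, and the cytokines IL1A and IL1B in MIV. The remaining called genes of the list, also named after their values were seen, did not share 1 order. NFKB2 and FOS were lowest in MIII and highest in MIV. NFKB2 averaged 354.5 for MII, 289 for MIII and 979 for MIV, and FOS 1102, 618 and 1506. NFKBIZ was lowest in MIV, at 1413 for MII, 1597 for MIII and 727 for MIV.

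**Figure D4:**
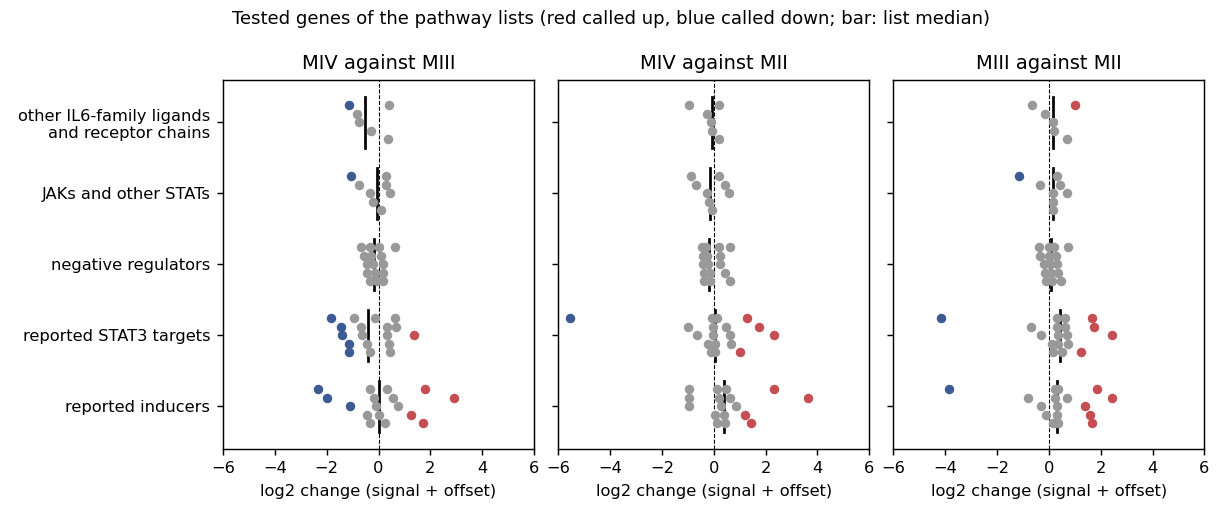
Log2 change of each tested gene of 5 pathway lists in each comparison, with red for called up, blue for called down, grey for not called and a black bar for the list median. None of the 16 negative regulators was called, and the lists of reported STAT3 targets and inducers have calls in both directions. Of all genes 4.95% were called up and 7.79% down for MIV over MIII, 2.96% and 5.18% for MIV over MII, and 6.17% and 5.55% for MIII over MII. The inducer list also holds inhibitors such as IL1RN.

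The genes with the most similar profile were listed for IL6, LIF and SOCS3 by Pearson's r over the 9 arrays, which fall into 3 lines, so a high r mainly says that the lines stand in the same order. For IL6 they were CALML3 (r = 0.977), SLC2A3 (0.976) and PRKACB (0.976). CALML3 averaged 57.0 for MII, 256 for MIII and 63.5 for MIV. For LIF they were UBA3 (r = 0.997), SMURF2 (0.994) and MEAF6 (0.994), and UBA3 averaged 4337 for MII, 4740.2 for MIII and 8829 for MIV. For SOCS3 they were CHPT1 (r = 0.996), TNS3 (0.995) and BMERB1 (0.994), and CHPT1 averaged 6665.5 for MII, 11545 for MIII and 4620.0 for MIV. The number of tested genes with r above 0.95 was 50 for IL6, 155 for LIF and 267 for SOCS3, so these names are the top of long lists. No such genes are named for IL11, whose values lie under the pooled median on all arrays.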

How the data were processed

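Total RNA of 3 lines was hybridised as biotin-labelled cRNA to Affymetrix arrays, 3 per line. The authors deposited intensity values on a linear scale, made with MAS5 according to the submitters' processing notes. Every array had the same trimmed mean (499.9 over the central 96% of values), so no scaling was added. Detection calls were not used here. The table holds 54675 probe sets, 62 of them controls; 1801 list several genes and were not named.

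Signals were tested as log2(signal + 18.3), the offset being the pooled 25th percentile. The brightest probe set on average stood for its gene. All 9 arrays entered 1 model of line means (limma 3.58.1 under R 4.3.3, trended variance prior, 6 residual degrees of freedom), which was tested on simulated data. A second fit took all 54613 non-control probe sets unfiltered. Replicate numbers did not pair arrays: deviations of same-numbered arrays correlated between -0.07 and 0.05. Alternatives were the offset, scaling, filter, variance prior, array weights, choice of probe set, replicate block, arrays in the fit, thresholds and leaving out each array.

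Genes named by rule are all members, up to 4 called genes per list with the largest change, and the 3 most similar profiles. OSM, IL1R1, IL1RAP, NFKB2, FOS, NFKBIZ and the chromosome neighbours were named outside this rule after their values were seen. CSF3R, the only tested gene of its list, and several cell type markers were also named outside it. The members and lists were chosen with earlier results of these data known. Errors of signals are SDs and errors of log2 changes standard errors.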

Additional observations from a re-analysis of the deposited data

How the results depend on the processing

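Of 516 recomputed log2 changes of the 8 tested members, under 22 settings where a gene passed the setting's filter, 509 kept direction and call. Changed thresholds are not among these settings and are given separately. Sizes moved more: over these settings the change in MIV against MIII ranged from -4.56 to -1.91 for CSF3, -3.94 to -2.10 for IL6, -3.16 to -1.43 for SOCS3, -2.81 to -1.02 for LIFR, -1.93 to -1.12 for IL6ST and -0.90 to -0.08 for OSMR. Only SOCS3 in MIV against MII and LIFR in MIII against MII lost a call, LIFR with all probe sets averaged (0.96) and SOCS3 at -0.73 with the offset at the pooled median, -0.40 with probe sets averaged and -0.94 without MII replicate 3, and OSMR in MIII against MII gained one when scaled to the median of the genes tested (1.02). The uncalled change of IL6ST in MIV against MII turned to -0.066 with probe sets averaged, and that of IL6 to 0.34 without MIV replicate 3, in a range of -0.64 to 0.34 over the arrays left out. With the filter at the pooled 75th percentile, which removes dim members, 2 members were called for MIV over MIII (6 otherwise), 1 for MIV over MII (2 otherwise) and 1 for MIII over MII (5 otherwise). In MIV against MII the count was 1 with the offset at the pooled median and with probe sets averaged, and 1 to 2 when each array was left out. At an adjusted p under 0.01 and 4-fold, CSF3, IL6, LIFR and SOCS3 kept their calls for MIV over MIII, whereas IL6ST and LIF lost theirs. At this threshold limma called 0 members for MIV over MII and 2 for MIII over MII. It called 5, 0 and 2 of the 28 probe sets for MIV over MIII, MIV over MII and MIII over MII, where limma called 12, 3 and 10 at the usual threshold. In the same order of comparisons, 1604, 1025 and 1476 of all genes were called. They became 893, 535 and 810 with the stricter filter, 6530, 5310 and 5946 without a fold minimum, and 515, 257 and 499 at the stricter threshold. With the offset at the pooled median 681 genes were called in MIV against MII. The replicate block gave 1607, 1026 and 1483 genes and 6, 2 and 5 members, and changed no call. Signals near the floor limit what IL6, CSF3, LIFR and IL11 can show in MII and MIV, and what SOCS3 can show in MIV.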

Other observations

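Gene order along the chromosome was compared for the members, a choice made after their values were seen, with RefSeq GRCh38.p14 used for the order alone. LIFR and OSMR are adjacent protein-coding genes. The tested coding genes on either side were not called in MIII against MII, with log2 changes of 0.21 ± 0.10 (SE) for EGFLAM beside LIFR and -0.09 ± 0.08 for RICTOR beside OSMR. IL31RA and IL6ST are also adjacent, and IL31RA had 1.02 ± 0.17 in that comparison, while MAP3K1, the second coding gene on the other side of IL6ST, had -0.28 ± 0.09. STAT5A is the coding gene next to STAT3, with CAVIN1 on the other side. CAVIN1 had -0.49 ± 0.07 in MIV against MIII without a call, where STAT5A had -1.05 ± 0.23. THRA, the second coding gene from CSF3, was called like CSF3 in both comparisons with MIII, at -1.16 ± 0.23 in MIV against MIII and 1.29 ± 0.23 in MIII against MII, while PSMD3, next to CSF3 on the other side, had -0.41 ± 0.09 and 0.51 ± 0.09 without a call.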
